A study of Danio rerio with 13 samples.

Results

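Collagens are the main structural proteins of the matrix between cells, and the levels of their genes were described here in muscle of zebrafish that carry mutant alleles of tert, the gene for the catalytic subunit of telomerase. The members were all genes of the deposited counts table whose zebrafish symbol begins with col, a type number, the letter a and a chain number, with case ignored. This rule found 56 of the 32105 genes in the table, which belong to 22 collagen types. Of the 56, 9 were grouped as fibrillar collagens (types I, V and XXIV), 12 as basement membrane collagens (types IV, VII, XV and XVIII) and 12 as cartilage collagens (types II, IX, X, XI and XXVII). The other members were 11 collagens of beaded filaments and short networks (types VI, VIII and XXVIII), 8 fibril-associated collagens (types XII, XIV, XVI, XIX and XXI) and 4 transmembrane collagens (types XVII and XXIII). Symbols are written as the name table gives them, so that 22 members stand in human capitals. In all, 10 members share a symbol with another member, and these are told apart by their identifier.

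Bulk RNA sequencing was done on muscle of 3-month-old male fish of the AB strain. The 13 samples were 3 tert-/- fish with both alleles mutant, 5 tert+/- fish with 1 mutant allele and 5 wild-type fish, 1 library each. The mutant allele, tert hu3430, is a nonsense change that is present in every cell of the fish, so the tert transcript itself could still be counted. The gene tert had 3.25 to 4.63 CPM (the count of a gene per 1000000 counts of its library) in tert-/- libraries, 5.24 to 15.8 CPM in tert+/- libraries and 4.30 to 7.80 CPM in wild-type libraries. Replicate numbers are names only. The p-values of the genotype comparisons below weigh a difference against the spread between these samples. The sources used here do not say whether the fish were siblings or reared together.

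The libraries held 10585558 to 47492321 counts. The 21 listed genes of fast muscle fibres summed to between 234305 and 425667 CPM, so that all libraries carried the labelled tissue's defining markers. In 3 libraries the germ cell gene ddx4 exceeded 50 CPM, with 426 CPM in tert-/- replicate 1, 180.4 CPM in tert+/- replicate 1 and 116 CPM in wild type replicate 5. The other 10 libraries held 0 to 3.71 CPM of ddx4. A list of 23 testis genes summed to 664 to 3131 CPM in those 3 libraries and to 10.6 to 68.9 CPM in the other 10. The TMM factors of edgeR, which rescale library sizes in the tests below by a trimmed mean of gene ratios, were 2.3, 2.03 and 1.07 in these 3 libraries, against 0.77 to 0.92 in the rest. Class medians and many fold changes are therefore given with and without the 3 libraries. Counts of negative and positive fold changes rest on all 13 libraries unless stated.

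A collagen molecule is built of chains that wind around each other along a repeated glycine motif, and the different types assemble into different structures. Type I chains, with type V chains that nucleate them, form the thick fibrils of tendon, skin, scale and the connective tissue sheaths of muscle. Type IV chains form the flat network of basement membranes that wraps each muscle fibre and blood vessel, while types XV and XVIII link that network to the matrix beyond it and type VII anchors epithelia. Types II, IX and XI make the thin fibrils of cartilage, and type X marks hypertrophic cartilage and, in fish, also bone-forming cells. Type VI forms beaded filaments beside the basement membrane of muscle fibres, and inherited loss of it in people causes muscle disease. In adult muscle most collagen is made by fibroblasts rather than by the fibres. In bulk muscle, fewer cells of a type and less RNA per cell cannot be told apart.

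Type I collagen dominated the collagen transcripts of muscle. Fibrillar collagens took 74.9% of all collagen counts, with 67.1% in type I alone and 7.75% in type V. Beaded filament and short network collagens took 9.52%, nearly all of it type VI at 9.07%, and fibril-associated collagens 6.33%. Basement membrane collagens took 5.16%, of which type IV held 3.80%, and cartilage collagens took 3.75%. Transmembrane collagens took 0.358%. By mean level, 11 members had at least 100 CPM, 10 had 10 to 100 CPM, 25 had 1 to 10 CPM and 10 had under 1 CPM.

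Levels of different genes were compared per kilobase of gene length. The fibrillar gene col1a1a averaged 260 ± 67.9 CPM per kilobase (SD over 13 libraries). The other type I genes followed, with COL1A1 at 204 ± 53.5 and COL1A2 at 203 ± 53.5 CPM per kilobase. In 13 of 13 libraries col1a1a was above COL1A1, and in 13 of 13 COL1A2 was above the next gene, COL5A2, at 39.3 ± 12.4 CPM per kilobase. COL1A1 exceeded COL1A2 in 8 of 13 libraries, so that this pair did not differ beyond its spread. COL5A1 (24.2 ± 7.02 CPM per kilobase), col6a1 (22.99 ± 5.62), COL6A2 (22.8 ± 7.40), COL12A1 of ENSDARG00000078322 (21.8 ± 6.41) and COL6A3 (16.8 ± 3.54) came next. Neighbours in that stretch changed places between libraries, COL6A2 standing above COL12A1 in 7 of 13. The most abundant cartilage collagen was COL2A1 of ENSDARG00000011407 (16.8 ± 4.21 CPM per kilobase), just above the most abundant basement membrane collagen, COL4A1 (15.5 ± 3.96 CPM per kilobase), in 9 of 13 libraries. Then came, by mean level, col11a1b (12.3 ± 3.87), COL4A2 (11.1 ± 4.49), col18a1b (9.57 ± 2.93) and col16a1 (8.77 ± 2.59). These neighbours also changed places. Of 13 libraries, col11a1b stood above COL4A2 in 5, COL4A2 above col18a1b in 8 and col18a1b above col16a1 in 9. In 13 of 13 libraries col16a1 was above col28a1b (5.01 ± 2.14 CPM per kilobase).

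**Figure D1:**
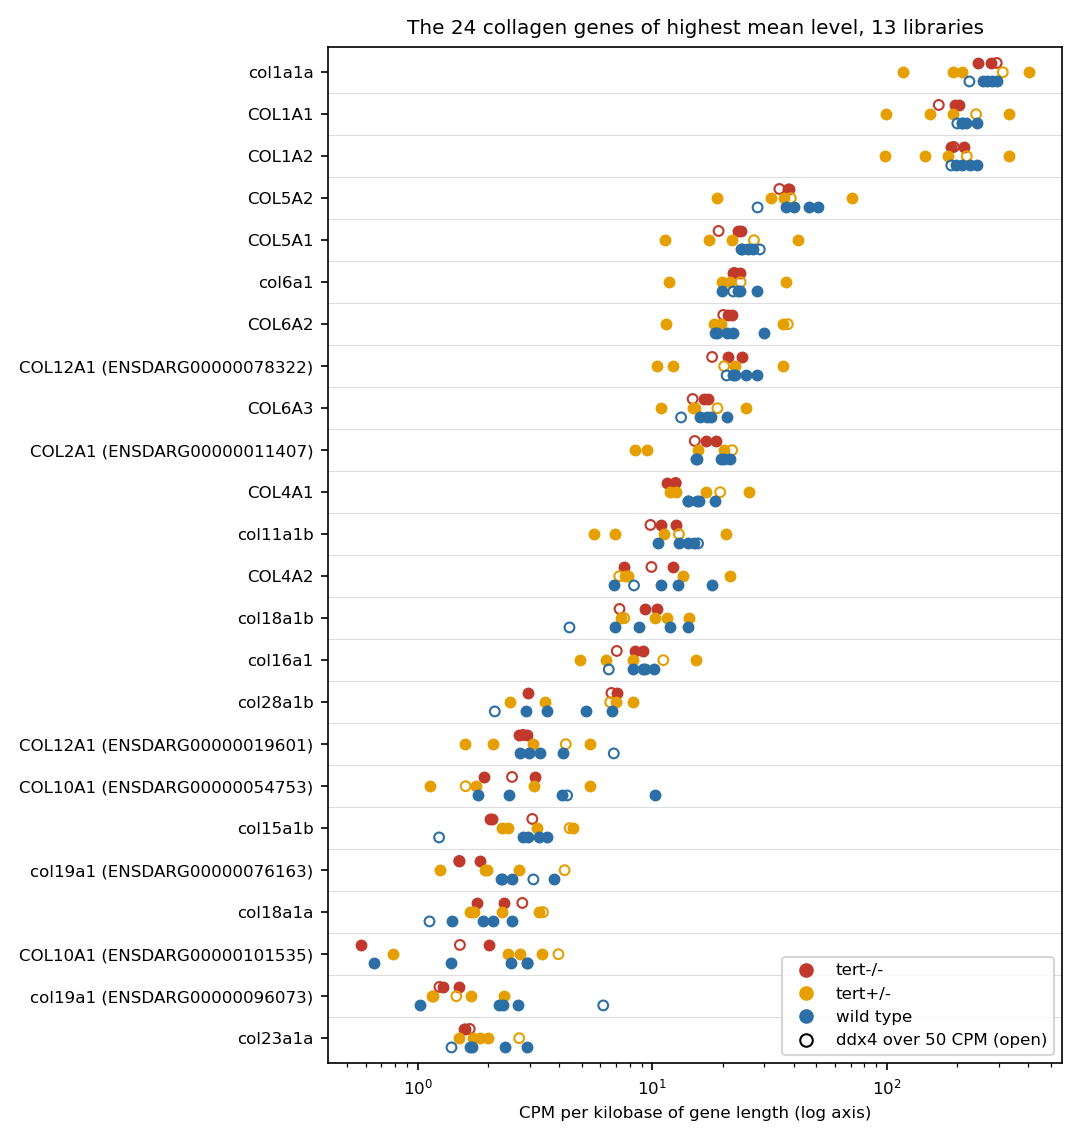
Levels of the 24 collagen genes of highest mean level, in CPM per kilobase of gene length on a log axis, with 1 point per library, coloured by genotype, and open points for the 3 libraries with ddx4 over 50 CPM. The 3 type I genes stand apart at the top, col1a1a between 117 and 402 CPM per kilobase, and for the type I and type V genes shown the lowest and the highest point are both tert+/- libraries.

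The share of each library's counts taken by all 56 collagens was 0.561%, 0.555% and 0.573% in the tert-/- libraries, numbered from 1. Among tert+/- libraries it was 0.672%, 0.921%, 0.290%, 0.517% and 0.427%, and among wild-type libraries 0.588%, 0.683%, 0.576%, 0.613% and 0.534%. The 3 tert-/- values lay close together and inside the range of both other genotypes, and the tert+/- libraries were the most spread. The means were 0.563 ± 0.00930% in tert-/- (SD, n = 3), 0.565 ± 0.243% in tert+/- (n = 5) and 0.599 ± 0.0554% in wild type (n = 5). Counting error was far smaller than this spread. The widest 95% Wilson interval, in wild type replicate 5, ran from 0.529% to 0.538%, and such intervals cover counting error only. Cartilage collagens took 0.0210 ± 0.000221% of counts in tert-/-, 0.0201 ± 0.00900% in tert+/- and 0.0245 ± 0.00413% in wild type. Basement membrane collagens took 0.0267 ± 0.00454% in tert-/-, 0.0324 ± 0.0105% in tert+/- and 0.0289 ± 0.00505% in wild type. The genotypes overlapped in all 3 shares.

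**Figure D2:**
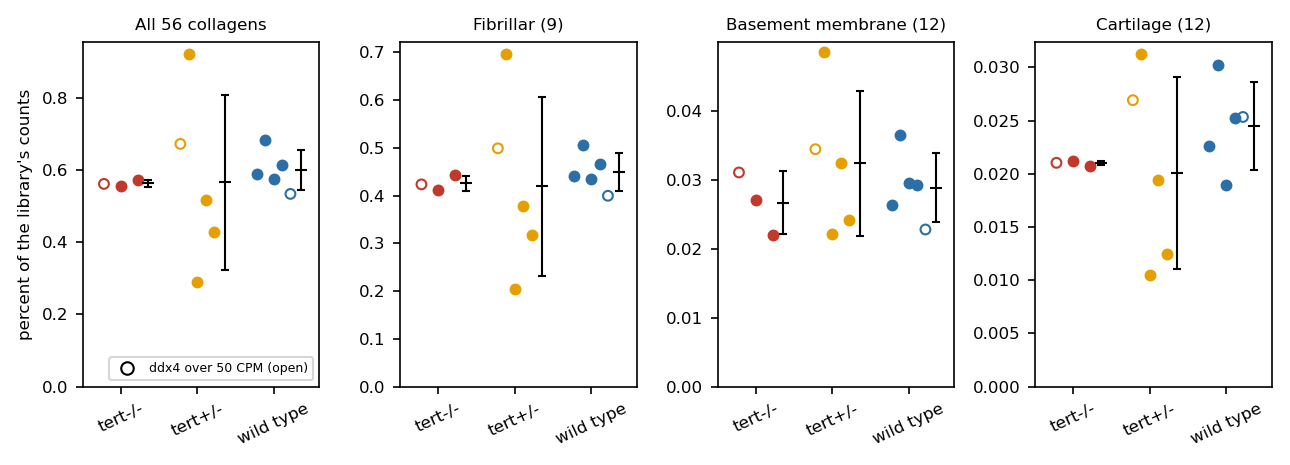
Percent of each library's counts taken by all 56 collagens and by the 9 fibrillar, 12 basement membrane and 12 cartilage collagens, from an axis that starts at 0, with 1 point per library and bars for the mean ± SD of each genotype. Open points are the 3 libraries with ddx4 over 50 CPM. The tert-/- libraries span 0.555% to 0.573% in the panel of all collagens and the tert+/- libraries 0.290% to 0.921%.

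A pair of tert+/- libraries, picked out after their values were seen, held most of the extremes. Of the 21 collagens of at least 10 CPM on average, 18 had their highest value among the 10 libraries low in ddx4 in tert+/- replicate 2, and 14 had their lowest in tert+/- replicate 3. Of all genes of that level, 20.9% were highest in tert+/- replicate 2 and 10.8% lowest in tert+/- replicate 3. The highest value of these 21 collagens was 1.94 to 3.77 times the lowest, with a median of 3.16 times. These 2 libraries carry the same genotype label.

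The chain genes of type I moved together across libraries. Over the 10 libraries low in ddx4, log2 levels of col1a1a and COL1A2 had a Pearson r of 0.989 and a Spearman rho of 0.988. With col1a1a, r was 0.975 for COL1A1 (rho 0.952) and 0.972 for COL5A1 (rho 0.988). These 3 values of r had a permutation p of 1e-05, the smallest that 100000 resamples can give, and an adjusted p of 3.33e-05 over 10 pairs examined. Without the pair of libraries farthest from the median, r stayed at 0.965 for COL1A2, 0.900 for COL1A1 and 0.921 for COL5A1. The points share their library's total and its other RNA, so these values describe the libraries.

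The cartilage and basement membrane genes gave lower values of r with col1a1a over the 10 libraries. For COL2A1 of ENSDARG00000011407, r was 0.862 (rho 0.794, permutation p = 0.00087, adjusted p = 0.00217) and 0.827 without the 2 extreme libraries. For COL4A1, r was 0.613 (rho 0.539, permutation p = 0.0637, adjusted p = 0.0911) and 0.229 without those 2 libraries. With each genotype's mean taken off, r was 0.888 for COL4A1 (rho 0.733, permutation p = 0.00185, adjusted p = 0.00394) and 0.843 for this COL2A1 gene, but 0.469 and 0.509 without the 2 extreme libraries. Over all 13 libraries r was 0.817 for COL4A1 (adjusted permutation p = 0.0002) and 0.925 for COL2A1. These levels carry the TMM factors, which were highest in tert-/- replicate 1 and tert+/- replicate 1. There col1a1a had 770 and 927 CPM after TMM scaling, against 838 to 2625 CPM in the 10 libraries low in ddx4. In plain CPM it had 1770 and 1879, against 705 to 2421. The part of the factors in the values of r over 13 libraries was not tested. COL4A1 and COL4A2 had an r of 0.724 (rho 0.624, permutation p = 0.0154, adjusted p = 0.0285), and 0.709 without the 2 farthest libraries. The r of 0.783 between col6a1 and COL6A2 (rho 0.552, permutation p = 0.0171, adjusted p = 0.0285) rested on the 2 extreme libraries, being -0.141 without them. The libraries then left include wild type replicate 1, where the ratio of COL6A2 to col6a1 was 1.51. With genotype means taken off r was 0.766, and -0.612 without the 2 extreme libraries. Over all 13 libraries r was 0.852 (rho 0.813, permutation p = 0.00023, adjusted p = 0.000329). It was 0.810 there without tert-/- replicate 1 and tert+/- replicate 1, the 2 farthest. That value still includes tert+/- replicates 2 and 3, on which the r over 10 libraries rested. SERPINH1, the chaperone that escorts procollagen out of the endoplasmic reticulum, is a symbol of 2 genes in the name table. Neither passed the permutation test with col1a1a, at an r of -0.160 for ENSDARG00000019949 (rho -0.164, p = 0.676, adjusted p = 0.676) and of 0.151 for ENSDARG00000075954 (rho 0.236, p = 0.664, adjusted p = 0.676). Over all 13 libraries the second had an r of 0.695 (rho 0.621, permutation p = 0.0082, adjusted p = 0.0102), and with genotype means taken off the first had an r of -0.620 (rho -0.685, permutation p = 0.0539, adjusted p = 0.0674). The second gene named COL2A1 had an r of 0.511 with col1a1a (rho 0.442, permutation p = 0.135, adjusted p = 0.168).

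Ratios of chain genes within a library do not depend on the library's total. The ratio of COL1A2 to col1a1a per kilobase lay between 0.656 and 0.869 in all 13 libraries, with a coefficient of variation of 7.50%. The summed levels of col1a1a and COL1A1 were 2.17 to 2.52 times that of COL1A2, with a median of 2.26. COL5A2 to COL5A1 had a median of 1.67 and was lowest in wild type replicate 5, at 0.979. COL6A3 to col6a1 lay between 0.599 and 0.923.

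A pair of libraries stood apart in type VI and type IV. COL6A2 to col6a1 was 1.59 in tert+/- replicate 1 and 1.51 in wild type replicate 1, against 0.787 to 0.992 in the other 11 libraries. COL4A2 to COL4A1 was 0.371 in tert+/- replicate 1 and 0.431 in wild type replicate 1, against 0.586 to 0.984 in the other 11. The weakly expressed fibrillar gene col24a1 was also highest there, with 3.82 CPM in tert+/- replicate 1 and 3.07 CPM in wild type replicate 1, against 0 to 1.60 CPM elsewhere. This pair was picked out after its values were seen. In the RefSeq gene table (assembly GRCz12tu), col4a1 and col4a2 are neighbours on chromosome 9, col4a5 and col4a6 on chromosome 7, col4a3 and col4a4 on chromosome 15 and col9a2 and col16a1 on chromosome 19. That table holds 60 collagen symbols on 23 chromosomes, and these 4 pairs are its neighbours.

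**Figure D3:**
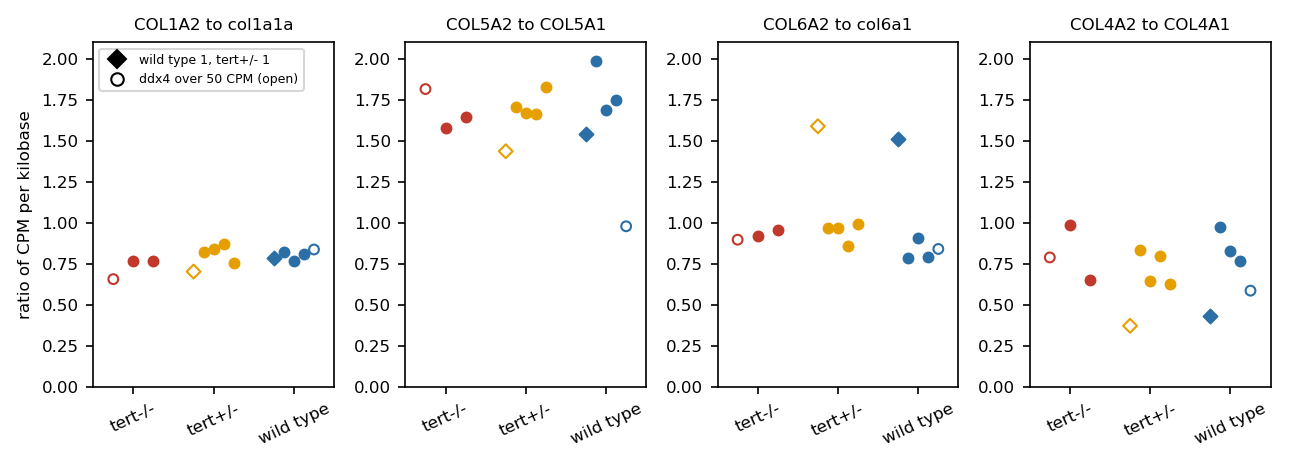
Ratios of the levels of chain genes of 1 collagen type, per kilobase, in each library by genotype, on axes that start at 0. Diamonds mark tert+/- replicate 1 and wild type replicate 1, which are high for COL6A2 to col6a1 (1.59 and 1.51) and low for COL4A2 to COL4A1 (0.371 and 0.431). Open symbols are the libraries with ddx4 over 50 CPM.

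The comparisons between genotypes asked whether collagen levels in muscle of these fish differ with loss of 1 or both tert alleles. With edgeR's quasi-likelihood test on all 13 libraries, no collagen differed at an adjusted p under 0.05, with 0 of the 53 tested called in tert-/- against wild type, in tert+/- against wild type and in tert-/- against tert+/-. Among all 19407 genes tested, 0.0% were called in each comparison. DESeq2 and limma-voom also called 0 collagens. The 3 collagens left out by the expression filter were col8a1a, col28a1a and col28a2b. At an unadjusted p under 0.05, edgeR gave 2 collagens lower and 0 higher in tert-/- against wild type, where all genes gave 1.36% lower and 1.2% higher. It gave 2 lower and 0 higher in tert+/- against wild type, against 1.71% and 1.16% of all genes, and none in either direction in tert-/- against tert+/-, against 0.809% and 0.654%. At that level DESeq2 gave 2, 3 and 0 collagens lower in these comparisons, where 1.61%, 2.01% and 1.31% of all genes were lower. With limma-voom 2, 7 and 0 were lower, where 2.13%, 6.82% and 1.08% of all genes were, and 1 was higher in tert-/- against wild type, where 2.18% of all genes were.

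With TMM scaling on all 13 libraries, more collagens had negative than positive fold changes in both mutant genotypes. In tert-/- against wild type, 40 of 53 collagens had a negative log2 fold change, with a median of -0.34, where the median over all genes was -0.03. In tert+/- against wild type 36 of 53 were negative, with a median of -0.16 against 0.00 over all genes. Both comparisons share the 5 wild-type libraries. In tert-/- against tert+/- 31 of 53 were negative, with a median of -0.10 against 0.00 over all genes. With library totals alone in place of TMM factors, the median over all genes moved to 0.49 in tert-/- against wild type, 0.29 in tert+/- against wild type and 0.25 in tert-/- against tert+/-. Without TMM factors 29 of 53 collagens were negative in tert-/- against wild type, with a median of -0.04. In tert+/- against wild type 24 were then negative and 29 positive, with a median of 0.08, and likewise 24 and 29 in tert-/- against tert+/-, with a median of 0.06. With limma-voom the last comparison turned as well, to 17 negative and 36 positive, with a median of 0.16. Relative to the shifts of all genes with library totals alone, the class medians were -0.63, -0.38 and -0.23 for fibrillar, -0.05, 0.11 and -0.04 for basement membrane and -0.63, -0.56 and -0.10 for cartilage collagens in the same order.

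Class medians are given with no test. Fibrillar medians on the log2 scale were -0.41 in tert-/- against wild type, -0.30 in tert+/- against wild type and -0.04 in tert-/- against tert+/-. They were -0.10, -0.23 and 0.12 without the 3 libraries. Basement membrane medians were -0.05, 0.09 and -0.21 with the 3 libraries and -0.30, 0.02 and -0.31 without them. The latter rest on fewer genes, since weakly expressed type IV genes such as col4a3 then fell below the expression filter. Cartilage medians were -0.49, -0.58 and 0.17 with the 3 libraries and -0.62, -0.82 and 0.20 without them.

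**Figure D4:**
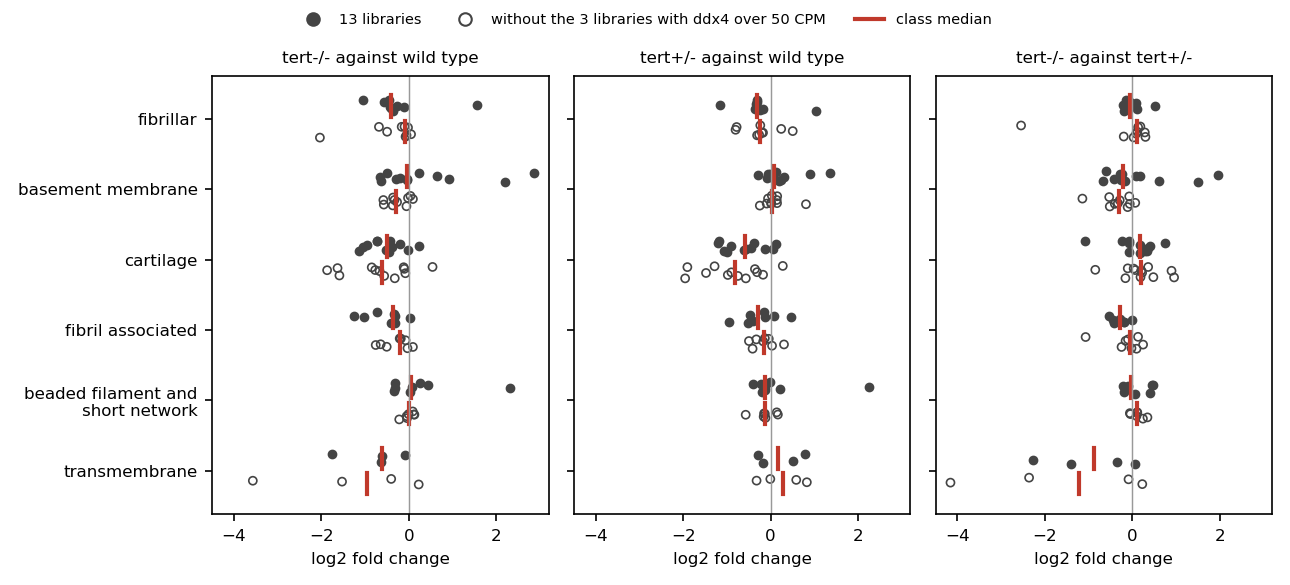
Log2 fold change of each tested collagen from edgeR, by class, in the 3 comparisons, with filled points from 13 libraries, open points from the 10 libraries low in ddx4 and a red bar for the median of each set. Cartilage medians lie at -0.49 and -0.58 against wild type, and -0.62 and -0.82 without the 3 libraries. No point passed the test.

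The main fibrillar collagens of tert-/- libraries lay within or close to the wild-type range in plain CPM. The gene col1a1a had 1770, 1469 and 1681 CPM in tert-/-, 1879, 2421, 705, 1261 and 1156 CPM in tert+/- and 1606, 1780, 1545, 1686 and 1354 CPM in wild type, with libraries in the order of their numbers here and below. Its tert-/- and wild-type values overlapped throughout, and tert+/- held both the highest and the lowest library. On the log2 scale its fold change was -0.27 ± 0.44 in tert-/- against wild type (± SE here and below), -0.34 ± 0.38 in tert+/- against wild type and 0.07 ± 0.44 in tert-/- against tert+/- (edgeR adjusted p = 0.992, 1.0 and 1.0). Without the 3 libraries the values were -0.02, -0.31 and 0.29.

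COL1A2, the second chain of type I, had 1109, 1079 and 1227 CPM in tert-/-, 1260, 1907, 567, 1046 and 834 CPM in tert+/- and 1204, 1395, 1134, 1300 and 1083 CPM in wild type. COL1A1 had 934, 1136 and 1098 CPM in tert-/-, 1347, 1854, 555, 1073 and 854 CPM in tert+/- and 1174, 1360, 1218, 1174 and 1120 CPM in wild type. The order of the tert+/- libraries was the same as for col1a1a, with replicate 2 highest and replicate 3 lowest. COL5A2, a type V chain, had 176, 191 and 193 CPM in tert-/-, 197, 361, 95.8, 184 and 162 CPM in tert+/- and 189, 257, 204, 237 and 142 CPM in wild type. All 3 genotypes overlapped, and the log2 fold change in tert-/- against tert+/- was -0.18 ± 0.48 with the 3 libraries and 0.03 without them.

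The minor type V genes varied more. The gene col5a2b had 2.27, 1.44 and 0.816 CPM in tert-/-, 1.14, 1.87, 0.796, 0.8 and 0.926 CPM in tert+/- and 0.664, 4.36, 0.888, 1.46 and 4.16 CPM in wild type. Wild type replicates 2 and 5 were the highest, and the genotypes overlapped. Its log2 fold change was -1.16 ± 0.51 in tert+/- against wild type (edgeR adjusted p = 1.0) and -1.04 ± 0.60 in tert-/- against wild type (edgeR adjusted p = 0.992). Without the 3 libraries it was -0.78 and -0.68, and without wild type replicate 2 as well it was 0.05 and 0.15. The gene col5a3b had 47.5, 0.434 and 0.181 CPM in tert-/-, 33.6, 0.192, 4.12, 0.758 and 2.15 CPM in tert+/- and 1.33, 0.947, 2.49, 0.389 and 6.80 CPM in wild type. It was highest in the 3 libraries rich in ddx4, and its log2 fold change in tert-/- against wild type was 1.55 ± 1.37 with them and -2.03 without them. The other type V gene, col5a3a, lay between 1.16 and 7.41 CPM.

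Basement membrane collagens gave no shared direction with all 13 libraries. COL4A1 had 118, 118 and 109 CPM in tert-/-, 183, 242, 112, 159 and 119 CPM in tert+/- and 149, 174, 145, 133 and 134 CPM in wild type. In plain CPM all 3 tert-/- libraries lay below all 5 wild-type libraries, while tert+/- overlapped both. Of the 53 tested collagens, 2 stood this way in plain CPM, the other being col19a1 of ENSDARG00000076163, where 0.247% of all genes did. After TMM scaling the COL4A1 values overlapped. For COL4A1 the log2 fold change was -0.65 ± 0.38 in tert-/- against wild type (edgeR adjusted p = 0.992) and -0.60 ± 0.38 in tert-/- against tert+/- (edgeR adjusted p = 1.0), and -0.37 and -0.40 without the 3 libraries.

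COL4A2, the partner chain of COL4A1, had 57.2, 70.9 and 43.6 CPM in tert-/-, 41.7, 124, 44.2, 77.9 and 45.6 CPM in tert+/- and 39.4, 104, 74.0, 62.7 and 48.2 CPM in wild type. The gene col18a1b, whose protein carries the endostatin fragment at its end, had 33.2, 47.8 and 42.6 CPM in tert-/-, 34.8, 65.5, 33.8, 53.1 and 47.1 CPM in tert+/- and 31.9, 54.3, 40.2, 65.2 and 20.3 CPM in wild type. Both overlapped between all genotypes. The gene col15a1b, of the linking type XV that in mice supports muscle fibres and capillaries, had 14.9, 10.04 and 9.77 CPM in tert-/-, 21.4, 22.1, 11.7, 15.5 and 11 CPM in tert+/- and 17.2, 14.3, 13.5, 15.9 and 5.95 CPM in wild type. Among the 10 libraries low in ddx4, its tert-/- values of 10.04 and 9.77 CPM were the lowest. After TMM scaling it was 1 of 6 collagens with both tert-/- values below all 4 wild-type values there, where 6.91% of all genes were. It was the sole collagen with both below all 4 tert+/- values, where 4.79% of all genes were. Its log2 fold change in tert-/- against tert+/- was -0.67 ± 0.40 (edgeR adjusted p = 1.0) and -0.53 without the 3 libraries. In tert-/- against wild type without them it was -0.58 ± 0.25, the sole collagen at an unadjusted p under 0.05 (edgeR adjusted p = 1.0), where 1.42% of all genes were lower at that level.

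The minor type IV genes made up the positive end of the class. The gene col4a3 had 3.29, 0.114 and 0.0453 CPM in tert-/-, 1.61, 0.0274, 0.0362, 0.0211 and 0.0545 CPM in tert+/- and 0.0277, 0.0271, 0, 0 and 0.472 CPM in wild type. The 3 libraries rich in ddx4 were the 3 highest, and its log2 fold change of 2.86 ± 1.55 in tert-/- against wild type (edgeR adjusted p = 0.992) could not be fitted without them, because the gene then fell below the expression filter. The gene col4a5 had 42.4, 3.38 and 1.52 CPM in tert-/-, 24.4, 4.69, 3.51, 1.85 and 2.53 CPM in tert+/- and 4.73, 3.03, 4.70, 2.16 and 4.16 CPM in wild type. Its log2 fold change in tert-/- against wild type was 0.92 ± 0.66 with the 3 libraries and -0.57 ± 0.42 without them. The median over type IV genes was 0.58 with the 3 libraries (6 tested) and -0.36 without them (4 tested). The type VII gene col7a1, of the anchoring fibrils of skin, had 8.72, 0.823 and 0.589 CPM in tert-/-, 7.17, 0.686, 2.93, 0.737 and 2.02 CPM in tert+/- and 1.13, 0.568, 1.26, 0.657 and 1.70 CPM in wild type, and its log2 fold change in tert+/- against wild type was 0.91 ± 0.56 (edgeR adjusted p = 1.0) and 0.81 without the 3 libraries. The 2 genes named col7a1l lay between 0.0907 and 2.68 CPM.

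Cartilage collagens had negative log2 fold changes for the most part, 11 of 12 in tert-/- against wild type and 10 of 12 in tert+/- against wild type (8 and 9 with library totals alone). None passed the test. COL2A1 of ENSDARG00000011407, a chain of the main cartilage collagen, had 79.6, 97.6 and 88.5 CPM in tert-/-, 115, 106, 44.3, 81.9 and 49.9 CPM in tert+/- and 103, 113, 81.3, 106 and 80.9 CPM in wild type. The 2 lowest libraries were tert+/- replicates 3 and 5, and the genotypes overlapped. The gene col11a1b, of the type XI that sets the width of cartilage fibrils, had 83.5, 92.7 and 107 CPM in tert-/-, 110.5, 176, 47.8, 95.7 and 58.8 CPM in tert+/- and 110.2, 129, 90.2, 121 and 133 CPM in wild type. On the log2 scale it differed by -0.52 ± 0.47 in tert-/- against wild type and -0.45 ± 0.40 in tert+/- against wild type (edgeR adjusted p = 0.992 and 1.0).

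COL11A2, another type XI chain, had 9.51, 3.96 and 2.70 CPM in tert-/-, 5.63, 5.08, 1.84, 2.78 and 2.18 CPM in tert+/- and 2.79, 10.7, 3.12, 4.91 and 8.03 CPM in wild type. Wild type replicates 2 and 5 and tert-/- replicate 1 were highest, and all genotypes overlapped. Its log2 fold change in tert+/- against wild type was -1.01 ± 0.37 (edgeR adjusted p = 1.0), the smallest p of any collagen there, and -0.90 without the 3 libraries. It was -0.72 ± 0.43 in tert-/- against wild type (edgeR adjusted p = 0.992) and -0.67 without the 3 libraries. COL9A2, a type IX chain that sits on the surface of cartilage fibrils, had 0.481, 0.846 and 0.499 CPM in tert-/-, 1.41, 0.467, 0.289, 0.442 and 0.218 CPM in tert+/- and 0.415, 1.84, 0.745, 0.438 and 0.945 CPM in wild type. In tert+/- against wild type its log2 fold change was -1.07 ± 0.50 (edgeR adjusted p = 1.0) and -1.28 without the 3 libraries.

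The genes named COL10A1, of the collagen of hypertrophic cartilage, differed from each other. That of ENSDARG00000054753 had 6.66, 8.35 and 5.08 CPM in tert-/-, 4.22, 14.2, 2.97, 8.30 and 4.66 CPM in tert+/- and 4.79, 27.1, 6.48, 10.8 and 11.4 CPM in wild type. That of ENSDARG00000101535 had 3.16, 4.18 and 1.2 CPM in tert-/-, 8.31, 7.05, 5.68, 1.64 and 5.07 CPM in tert+/- and 1.36, 6.12, 2.89, 5.23 and 6.14 CPM in wild type. The first was highest in wild type replicate 2 and the second in tert+/- replicate 1. The second had a log2 fold change of -1.08 ± 0.57 in tert-/- against tert+/- (edgeR adjusted p = 1.0) and -0.95 ± 0.57 in tert-/- against wild type (edgeR adjusted p = 0.992), and -0.84 and -0.56 without the 3 libraries. The second COL2A1 gene, ENSDARG00000069093, had 11.9, 0.777 and 0.499 CPM in tert-/-, 7.37, 1.1, 0.181, 0.569 and 0.736 CPM in tert+/- and 0.221, 6.52, 1.55, 1.34 and 4.16 CPM in wild type. It was highest in tert-/- replicate 1. The remaining cartilage collagens COL9A1, col9a1b, COL11A1 and col27a1b lay between 0 and 7.24 CPM.

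Wild type replicate 2 was the highest of the 10 libraries low in ddx4 for 9 of the 12 cartilage collagens, where 10.6% of all genes tested were highest there. Within those 10 libraries the highest value was a median of 6.36 times the lowest over cartilage collagens above 0 in each of them, and 36.1 times for the second COL2A1 gene. The cartilage gene MATN1 had 0.412, 0.686 and 0.431 CPM in tert-/-, 0.469, 0.741, 0.362, 0.211 and 0.272 CPM in tert+/- and 0.304, 6.74, 1.72, 1.75 and 0.472 CPM in wild type. MATN1 is 1 of a list of 20 chondrocyte genes that are no collagens. In wild type replicate 2 the list summed to 136 CPM, inside the wild-type range. Its largest members there were SOX6 at 43.2 CPM and hapln1a at 42.4 CPM. Among the 10 libraries low in ddx4, that replicate was highest for MATN1, acana, chad, cnmd, epyc, snorc, UCMA and MATN3 of ENSDARG00000069245. For the other listed genes it was not the highest. In tert-/- and in tert+/- the list summed highest in replicate 1, rich in ddx4, at 164 and 198 CPM. The list ranged from 133 to 164 CPM in tert-/-, 82.8 to 198 CPM in tert+/- and 124 to 146 CPM in wild type. Of its 14 tested members 8 had negative log2 fold changes in tert-/- and 10 in tert+/- against wild type (4 and 8 with library totals alone), and the part of cartilage in these collagen values was not tested. A list of 15 bone and scale genes summed to 50.2 CPM in wild type replicate 2, the highest of all libraries. Of its 11 tested members 7 had negative log2 fold changes in tert-/- against wild type, with a median of -0.70, and 8 in tert+/- against wild type, with a median of -0.57. With edgeR 2 of them were lower at an unadjusted p under 0.05 in each comparison, where 1.36% and 1.71% of all genes were. The 2 in tert-/- against wild type no longer stood at that level without the 3 libraries rich in ddx4. In tert+/- against wild type ENTPD5, 1 of the 2, still did, at a log2 fold change of -1.33 ± 0.45 (edgeR adjusted p = 0.552). There 3.8% of all genes were lower at that level.

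Without the 3 libraries rich in ddx4, 4 collagens were lower in tert+/- against wild type at an unadjusted p under 0.05, where 3.8% of all genes were. All 4 were cartilage collagens, namely both COL2A1 genes, COL9A1 and COL9A2, with log2 fold changes of -0.56 ± 0.25, -1.90 ± 0.80, -1.95 ± 0.83 and -1.28 ± 0.50. The edgeR adjusted p was 0.552 for each. The cartilage median of -0.82 in that comparison became -0.41 when wild type replicate 2 was also left out, and 0 collagens then stood at an unadjusted p under 0.05. The median of -0.62 in tert-/- against wild type became -0.14. The second COL2A1 gene's log2 fold change in tert-/- against tert+/- was 0.76 ± 0.98 with the 3 libraries and 0.03 without them.

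**Figure D5:**
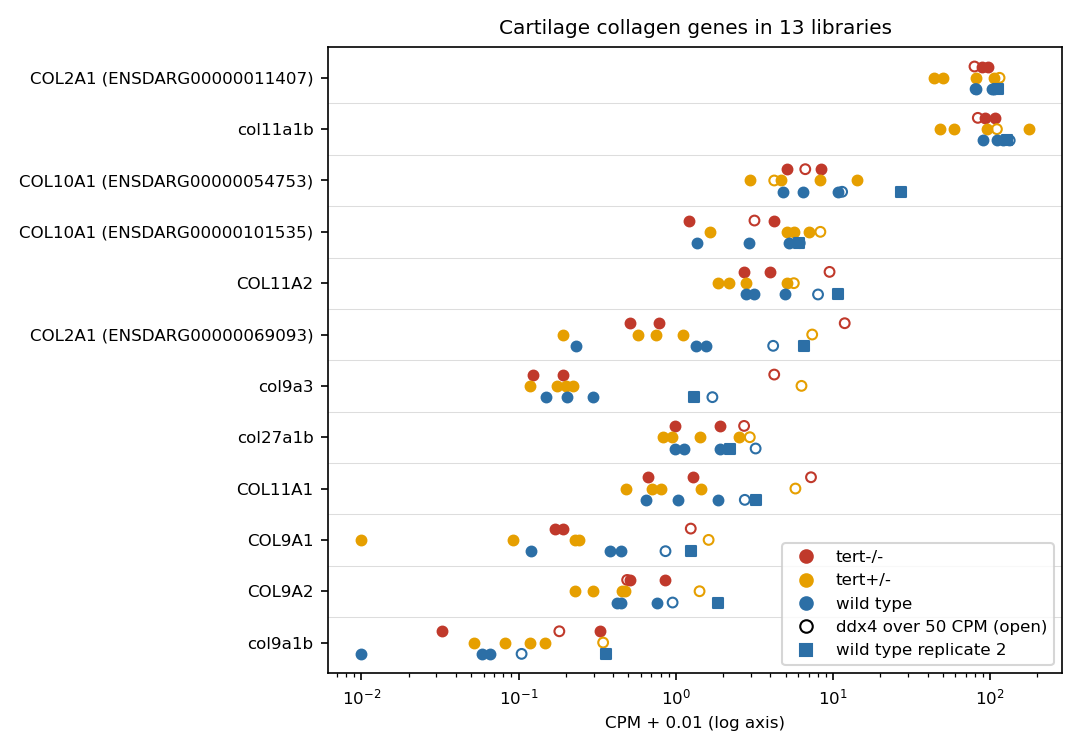
Levels of the 12 cartilage collagens in CPM, with 0.01 added so that values of 0 can be drawn on the log axis, 1 point per library by genotype. Squares mark wild type replicate 2, the highest of the 10 libraries low in ddx4 for 9 of the 12 genes, and open points are the 3 libraries rich in ddx4.

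Fibril-associated collagens, which sit on the surface of fibrils, held both collagens that were lower in tert-/- at an unadjusted p under 0.05. The gene col19a1 of ENSDARG00000076163, of a type known in mice from developing muscle and the zone below epithelia, had 10.2, 10.2 and 12.5 CPM in tert-/-, 28.7, 13.2, 8.50, 13.5 and 18.3 CPM in tert+/- and 25.9, 17.1, 15.4, 15.6 and 21.2 CPM in wild type. All 3 tert-/- values lay below all 5 wild-type values, in plain CPM and after TMM scaling. In plain CPM tert+/- replicate 3 was lower still. It was the sole collagen among 53 to stand this way after TMM scaling, where 0.984% of all genes did. For this gene the log2 fold change was -1.03 ± 0.38 (edgeR adjusted p = 0.992) and -0.64 without the 3 libraries. The other gene of that symbol, ENSDARG00000096073, had 1.48, 1.53 and 1.79 CPM in tert-/-, 1.74, 2.77, 1.37, 1.39 and 2.02 CPM in tert+/- and 1.22, 3.19, 2.64, 2.75 and 7.37 CPM in wild type. That gene had a log2 fold change of -1.25 ± 0.55 (edgeR adjusted p = 0.992) and -0.51 without the 3 libraries. The sources used here do not say how reads that match several places were counted, so reads could be split between genes of 1 symbol.

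The most abundant fibril-associated gene, COL12A1 of ENSDARG00000078322, whose type XII protein joins fibrils in tendon and muscle sheaths, had 194, 261 and 228 CPM in tert-/-, 219, 388, 113, 242 and 132 CPM in tert+/- and 239, 301, 243, 272 and 224 CPM in wild type. The type VI gene col6a1 had 127, 135 and 126 CPM in tert-/-, 135, 211, 66.9, 122 and 112 CPM in tert+/- and 112, 159, 131, 135 and 126 CPM in wild type. Both overlapped between genotypes and again had tert+/- replicates 2 and 3 at their ends. COL14A1, col14a1b and col21a1, also fibril-associated, lay between 0.204 and 6.70 CPM. The other COL12A1 gene lay between 19.1 and 82.5 CPM and col16a1 between 35.4 and 110.3 CPM. The type VIII genes COL8A1 and COL8A2 lay between 0.579 and 16.9 CPM, and both were highest in tert-/- replicate 1.

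Transmembrane collagens split into an even and an uneven set. The gene col23a1a had 14.3, 13.7 and 13.6 CPM in tert-/-, 23.3, 17.1, 14.8, 15.9 and 13.0 CPM in tert+/- and 25.2, 20.2, 14.6, 14.4 and 12 CPM in wild type. It overlapped between all genotypes. The gene col17a1a, for the collagen of hemidesmosomes that fix skin cells to their basement membrane, had 2.64, 0.137 and 0.0907 CPM in tert-/-, 3.62, 0.0274, 6.80, 0.147 and 1.47 CPM in tert+/- and 0.692, 1.76, 2.72, 0.559 and 1.61 CPM in wild type. Its paralog col17a1b had 5.46, 0.869 and 0.385 CPM in tert-/-, 3.48, 1.4, 8.61, 0.19 and 2.72 CPM in tert+/- and 1.22, 1.81, 3.47, 0.851 and 1.23 CPM in wild type. Both were highest in tert+/- replicate 3. The log2 fold change of col17a1a in tert-/- against tert+/- was -2.27 ± 1.32 (edgeR adjusted p = 1.0). Without the 3 libraries it was -4.16 ± 1.82 (edgeR adjusted p = 1.0), and col5a3b, at -2.54 ± 1.13 (edgeR adjusted p = 1.0), was the other collagen lower at that level there, where 1.81% of all genes were.

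The skin keratin gene krt5 stood at 671 CPM in tert+/- replicate 3 and 347 CPM in wild type replicate 3, against 22.2 to 141 CPM in the other 11 libraries. It was picked out, after its values were seen, from a list of 26 skin genes. Other listed genes such as krt91, krt97 and epcam were also highest in tert+/- replicate 3. By contrast krt4, krt94, icn and TP63 were highest in tert+/- replicate 1. The list summed to 306 to 586 CPM in tert-/-, 308 to 1463 CPM in tert+/- and 317 to 1007 CPM in wild type. Of its 24 tested members 20 had negative log2 fold changes in tert-/- against wild type and 20 had positive ones in tert+/- against wild type, none past the test. In tert-/- against tert+/- 21 of the 24 were negative, with a median of -1.20. With edgeR 3 of the 24 were lower there at an unadjusted p under 0.05, where 0.809% of all genes were. The part of these skin genes in the values of col17a1a, col17a1b and col7a1 was not tested. A list of 16 fibroblast and tenocyte markers that are no collagens summed to 127 to 178 CPM in tert-/-, 95.0 to 172 CPM in tert+/- and 102 to 184 CPM in wild type. With TMM scaling on all 13 libraries, 13 of its 15 tested genes had negative log2 fold changes in tert-/- and 15 in tert+/- against wild type. The medians were -0.39 and -0.54, and 11 genes had positive values in tert-/- against tert+/-. Over all genes 47.7%, 50.2% and 50.3% were positive in these comparisons. With edgeR 1 of the 15 was lower at an unadjusted p under 0.05 in tert-/- and 2 in tert+/- against wild type. Of all genes 1.36% and 1.71% were. Without the 3 libraries both PRRX1 genes were lower at that level in both comparisons, where 1.42% and 3.8% of all genes were. In tert+/- against wild type their log2 fold changes were then -1.44 ± 0.28 (ENSDARG00000042027) and -0.47 ± 0.15 (ENSDARG00000033971), each with an edgeR adjusted p of 0.552. The part of these markers in the collagen values was not tested.

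Collagens were set against the 3 libraries rich in ddx4 gene by gene. In plain CPM, 10 of 56 collagens, 9 of them among the 53 tested, were above all other libraries in each of the 3, where 32.2% of all genes tested were. They were col5a3b, col23a1b, col9a3, col27a1b, col4a6, col6a4a, col28a2a, col28a2b, col4a3 and COL4A4. The type IV gene col4a6 had 9.75 CPM in tert-/- replicate 1, 5.09 CPM in tert+/- replicate 1 and 3.12 CPM in wild type replicate 5, against 0.884 to 2.22 CPM in the other 10. The type XXVIII gene col28a2a had 3.09, 4.49 and 0.283 CPM in the same libraries, against 0 to 0.137 CPM elsewhere, and the cartilage gene col9a3 had 4.22, 6.30 and 1.70 CPM, against 0.108 to 1.3 CPM elsewhere. No collagen was below all other libraries in these 3 in plain CPM. After TMM scaling 5 of the tested collagens were above, where 17.3% of all genes were, and 7 were below, where 10.5% were. Of the 7 below, 5 were basement membrane collagens, namely COL4A1, COL4A2, col18a1b, col15a1b and col18a1a, beside COL6A3 and col23a1a. Testis genes and the TMM factor were also high in these 3 libraries, and their part in the collagen values was not tested.

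Genes that make, cross-link, bind or break down collagen were listed from known roles. No gene of these lists passed the test in any comparison. Of 33 tested synthesis genes, 25 had negative log2 fold changes in tert-/- against wild type, as did 6 of 9 cross-linking genes, 10 of 13 breakdown genes, 10 of 12 collagen receptors, 19 of 23 fibril partners and 15 of 20 basement membrane partners. In tert+/- against wild type the counts were 23 of 33, 4 of 9, 10 of 13, 10 of 12, 19 of 23 and 14 of 20. Over all genes 47.7% were positive in tert-/- against wild type and 50.2% in tert+/- against wild type. Without the 3 libraries the fibril partners in tert-/- against wild type stood at 11 negative of 22. The counts in tert-/- against wild type turned with library totals alone, when 81.7% of all genes were positive. The negative genes were then 5 of 33 in synthesis, 1 of 9 in cross-linking, 5 of 13 in breakdown, 2 of 12 receptors, 9 of 23 fibril partners and 5 of 20 basement membrane partners. In tert+/- against wild type they were then 12 of 33, 2 of 9, 5 of 13, 8 of 12, 14 of 23 and 9 of 20, when 76.8% of all genes were positive.

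Of the genes named from these lists, mmp13a, MRC2 and HSPG2 had an unadjusted p under 0.05 with edgeR in both mutant genotypes against wild type and FMOD in tert+/- alone, beside the shares of all genes given above. The collagenase gene mmp13a had a log2 fold change of 2.24 ± 0.92 in tert-/- against wild type (edgeR adjusted p = 0.992) and 1.99 ± 0.85 in tert+/- against wild type (edgeR adjusted p = 1.0), and 2.18 and 2.3 without the 3 libraries. MRC2, a receptor that takes up collagen fragments, had -1.99 ± 0.89 and -1.63 ± 0.73 in the same comparisons (edgeR adjusted p = 0.992 and 1.0), but -0.64 and -0.46 without the 3 libraries. HSPG2, which encodes perlecan of the basement membrane, had -0.98 ± 0.37 and -0.70 ± 0.31 (edgeR adjusted p = 0.992 and 1.0), and -0.55 and -0.42 without the 3 libraries. FMOD, for fibromodulin, a small proteoglycan on collagen fibrils, had -1.12 ± 0.57 and -1.22 ± 0.49 (edgeR adjusted p = 0.992 and 1.0), and -0.64 and -1.20 without the 3 libraries. BGN, for the related biglycan, had 1.17 ± 0.62 in tert-/- against wild type and 0.31 without the 3 libraries. The others with the smallest p of their lists were pcolceb, an enhancer of procollagen cleavage, at -1.12 ± 0.60, mia3, of procollagen export, at -0.39 ± 0.21, the cross-linking genes LOXL4 and LOXL3 at -0.85 ± 0.47 and -0.35 ± 0.29, the receptors DDR1 and ITGB1 at -0.41 ± 0.32 and -0.46 ± 0.45, and the laminin gene lama3 at 1.3 ± 0.92. These last values are log2 fold changes in tert-/- against wild type, and each has an edgeR adjusted p of 0.992. Without the 3 libraries they were -1.15 for pcolceb, -0.23 for mia3, -0.62 for LOXL4, -0.26 for LOXL3, -0.34 for both DDR1 and ITGB1 and 0.89 for lama3. The genes mmp13a, MRC2, FMOD, pcolceb and lama3 were also weakly expressed. Genotype means of mmp13a after TMM scaling ran from 0.0753 CPM in wild type to 0.361 CPM in tert-/-, where the SD was 0.303 CPM. Genotype means of MRC2 after TMM scaling ran from 0.303 CPM in tert-/- to 1.24 CPM in wild type, where the SD was 1.61 CPM. For FMOD they ran from 0.271 to 0.648 CPM, and for pcolceb and lama3 from 0.242 to 0.619 CPM.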

How the data were processed

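RNA of muscle was made into libraries with the TruSeq RNA kit. Per the submitters' processing notes, the authors demultiplexed reads with bcl2fastq 1.8.4, aligned them to GRCz10 with STAR 2.4.1d and counted them with featureCounts 1.4.6-p4. The deposited counts are whole reads per gene with no normalization. The deposited RPKM values were made by the authors from those counts, with the 13 library totals applied in turn down the table, so they served only to recover gene lengths (highest coefficient of variation 0.0541% over 2227 genes). Not given in the sources used here were the gene annotation used, whether strand was counted and how reads with several matches were handled. Counts on overlapping, antisense or near-identical genes can therefore not be told apart.

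CPM are counts per 1000000 counts of the library over genes, with no TMM factor unless stated. A name table gave symbols to 26269 of 32105 genes (81.8%). Depth ran from 10585558 to 47492321 counts, a ratio of 4.49 that sets the precision of weakly expressed members. All 13 libraries entered 1 quasi-likelihood fit in edgeR 4.0.16 (R 4.3.3) with a mean per genotype, TMM factors, the default expression filter (19407 genes kept, 53 of 56 collagens) and Benjamini-Hochberg adjustment over all genes at 0.05. Fold changes are log2 with their standard errors, and the first-named genotype is on top. Alternatives were DESeq2 1.42.0, limma-voom 3.58.1 with quality weights, other scalings and filters, libraries left out and fits without the 3 libraries rich in ddx4 (17970 genes). Pairs of genes were tested by permutation with 100000 resamples on log2 levels after TMM scaling, with a prior count of 0.5. The test was also run on simulated counts, and the outcome is not used here.

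Named with fold changes were, per comparison, the 2 collagens of smallest p in each of the fibrillar, basement membrane and cartilage classes and the 3 of smallest p among all. Named with levels were the 3 of highest level per kilobase in each of those classes and 1 in each other class, and from each other list the 2 members of smallest p in tert-/- against wild type. Lists of cell type markers are given by sums and counts. Of the genes this rule picks from them MATN1, epyc, ENTPD5 and both PRRX1 genes alone are printed. Chondrocyte genes beside MATN1 and epyc were named after their values were seen. Other genes were named after their values were seen, among them col4a5, col4a6, col9a3, col17a1b, col28a2a, col24a1 and krt5. The members, classes and lists were chosen with earlier results of these data known. No sequence of a member is shown here.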

Additional observations from a re-analysis of the deposited data

Results flagged for a closer look

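Among 74 groups of 5 values examined, that is levels of the collagens described and their chain ratios in tert+/- and in wild type, 7 held a value far from the other 4. Chance gives about 1 group in 20 for independent values of normal spread. These groups share libraries and are not independent, so that rate is only a rough guide. In 4 of the 7 the value was a weakly expressed collagen in tert+/- replicate 1, a library with 180.4 CPM of ddx4. There col5a3b had 33.6 CPM, against 0.192 to 4.12 CPM in the other tert+/- libraries, and COL2A1 of ENSDARG00000069093 had 7.37 CPM, against 0.181 to 1.098 CPM. In the same library col4a3 had 1.61 CPM, against 0.0211 to 0.0545 CPM, and COL9A2 had 1.41 CPM, against 0.218 to 0.467 CPM. In wild type replicate 5, which is also rich in ddx4, col4a3 had 0.472 CPM, against 0 to 0.0277 CPM in the other wild-type libraries.

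The ratio of COL6A2 to col6a1 per kilobase was 1.59 in tert+/- replicate 1, against 0.857 to 0.992 in the other tert+/- libraries. It was 1.51 in wild type replicate 1, against 0.787 to 0.904 in the other wild-type libraries.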

How the results depend on the processing

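Over the alternatives, fibrillar medians lay between -0.74 and -0.02 in tert-/- and between -0.62 and -0.09 in tert+/- against wild type, and between -0.37 and 0.26 in tert-/- against tert+/-. Basement membrane medians lay between -0.38 and 0.58, -0.10 and 0.40, and -0.47 and 0.39 in these comparisons, and cartilage medians between -0.77 and -0.13, -1.13 and -0.27, and -0.08 and 0.37. Of 156 counts of calls 151 were unchanged, with 0 collagens called under each. Over all genes, DESeq2 called 1 gene in tert-/- against wild type and 1 in tert-/- against tert+/-, and without the 3 libraries rich in ddx4 it called 2, 38 in tert+/- against wild type, and 1. Of 506 log2 fold changes under alternatives, 484 kept their direction. These cover the collagens that the naming rule picks, in the comparisons where it picks them. The 22 reversals among them were of 4 genes, and none of these values had passed the test. Other printed fold changes are not among the 506, as those of col4a5 and of col1a1a in tert-/- against wild type. That of col4a5, given above, turned from positive to negative without the 3 libraries. For col5a3b, tert-/- against wild type moved to -1.36 with limma-voom, -2.03 without the 3 libraries, -2.05 without them in DESeq2 and with library totals alone, -2.16 without them and wild type replicate 2, and between -2.73 (tert-/- replicate 1) and 2.46 with 1 library left out. In tert-/- against tert+/- the same settings gave -1.45, -2.54, -2.58 and -2.53, -2.54 and between -3.85 (tert-/- replicate 1) and 1.82. For col5a2b, the fit without the 3 libraries and wild type replicate 2 gave 0.15 in tert-/- and 0.055 in tert+/- against wild type. For COL5A2 in tert-/- against tert+/-, limma-voom gave 0.16, the fits without the 3 libraries 0.0325 (edgeR), 0.0278 (DESeq2) and 0.0333 (without wild type replicate 2 too), and leaving out 1 library at a time -0.51 to 0.21, positive without tert+/- replicate 2 or tert-/- replicate 1. For COL2A1 of ENSDARG00000069093 in that comparison, library totals alone without the 3 libraries gave -0.0295 and leaving out 1 library at a time -0.84 (tert-/- replicate 1) to 1.64. The causes were not tested. Its r with col1a1a was -0.130 over all 13 libraries, where r with COL4A1 was 0.817 and with SERPINH1 of ENSDARG00000075954 0.695. Fits without wild type replicate 2 beside the 3 libraries, or without wild type replicate 1 and tert+/- replicate 1, were chosen after seeing the data. No paired analysis was possible because the labels carry no replicate numbers that fish of different genotypes share. With 3 tert-/- fish and a biological coefficient of variation of 63.9% over all 13 libraries (37.4% without the 3), small differences in collagen levels were not detectable at this size. The median SE over all genes was 0.47 in tert-/- against wild type. Large estimates were not called either, such as 2.86 ± 1.55 for col4a3 there and -2.27 ± 1.32 for col17a1a in tert-/- against tert+/-. The lack of calls therefore does not exclude large differences.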
